A study of Mus musculus with 6 samples.

Results

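Dual-specificity MAP kinase phosphatases are the enzymes that switch mitogen-activated protein (MAP) kinases off, and 9 of their genes were followed in mouse macrophages: Dusp1, Dusp2, Dusp3, Dusp4, Dusp5, Dusp6, Dusp7, Dusp10 and Dusp16. They were chosen by gene symbol, with earlier results of these data known. Each matched 1 row, and they are 9 of the 55401 genes in the deposited table. Bone-marrow-derived macrophages were grown for 7 days in medium conditioned by L929 cells, which supplies the macrophage growth factor M-CSF. In the L-OHP+FUC group, 3 samples received fucoidan, a sulphated polysaccharide of brown algae, at 250 µg/ml ahead of L-OHP at 5 µM for 12 h. In the L-OHP group, 3 samples received L-OHP (oxaliplatin, a platinum drug that crosslinks DNA) at the same dose and for the same time without fucoidan. Every sample was therefore exposed to the drug, and the comparison is of added fucoidan. The sources used here give neither the strain, sex and age of the mice nor whether the samples came from separate animals or cultures. P-values therefore measure only how far these samples scatter, which may be technical scatter.

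MAP kinases of the ERK, JNK and p38 families are activated by phosphorylation of a threonine and a tyrosine in the same loop, and these phosphatases remove both phosphates. Several of the genes are themselves transcribed when MAP kinases are active, which makes the enzymes a negative feedback, and in macrophages this feedback is known for limiting inflammatory cytokine production. Members differ in where they act and on which kinase. Dusp1, Dusp2, Dusp4 and Dusp5 are nuclear and inducible, Dusp6 and Dusp7 are cytoplasmic and prefer ERK, Dusp10 and Dusp16 act mainly on JNK and p38, and Dusp3 is a small enzyme without the kinase-binding domain of the others.

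Promoter windows from 250 bases before to 50 bases after the RefSeq transcription start (build GRCm38.p6) were matched for 8 of the 9 genes, all but Dusp4. The windows of Dusp1, Dusp5 and Dusp16 are shown because these genes were higher with fucoidan and their windows hold letters of elements known to bind signal-activated transcription factors. Each runs 5′ to 3′ on the strand of the gene. Capitals mark the cAMP response element (CRE, TGACGTCA), its half-site (TGACG, on either strand, also counted inside a full CRE) and the CArG box, the element bound by serum response factor.
Dusp1, chr17:26508423-26508722, minus strand: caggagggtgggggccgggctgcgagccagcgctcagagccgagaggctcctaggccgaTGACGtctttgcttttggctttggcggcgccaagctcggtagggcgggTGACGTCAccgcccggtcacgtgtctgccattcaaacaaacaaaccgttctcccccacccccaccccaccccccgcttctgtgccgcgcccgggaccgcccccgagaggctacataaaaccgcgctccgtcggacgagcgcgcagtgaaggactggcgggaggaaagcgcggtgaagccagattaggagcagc
Dusp5, chr19:53528895-53529194, plus strand: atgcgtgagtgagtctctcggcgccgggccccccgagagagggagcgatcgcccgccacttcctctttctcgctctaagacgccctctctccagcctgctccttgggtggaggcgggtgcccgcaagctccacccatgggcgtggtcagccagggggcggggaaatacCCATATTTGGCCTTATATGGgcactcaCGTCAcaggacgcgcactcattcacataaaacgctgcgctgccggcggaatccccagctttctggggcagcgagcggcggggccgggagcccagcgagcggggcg
Dusp16, chr6:134792579-134792878, minus strand: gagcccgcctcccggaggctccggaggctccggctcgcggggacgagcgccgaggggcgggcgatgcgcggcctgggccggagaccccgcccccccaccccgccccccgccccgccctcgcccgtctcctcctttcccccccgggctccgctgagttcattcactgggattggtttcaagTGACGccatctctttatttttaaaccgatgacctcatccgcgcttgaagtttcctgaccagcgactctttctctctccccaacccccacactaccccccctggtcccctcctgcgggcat

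In the Dusp1 window the full CRE began 143 bases before the start and a further half-site 191 bases before it. A full CRE stood in 1.79% of the 32851 mouse windows of the same length and in 1 of the 8 windows of these genes. The Dusp5 window held CArG boxes 82 and 72 bases before the start, an element found in 1.63% of all windows, and a half-site 55 bases before it. In the Dusp16 window the half-site lay 70 bases before the start. Half-sites were present in 4 of the 8 windows, those of Dusp1, Dusp2, Dusp5 and Dusp16, and in 20.8% of all windows. The half-site of Dusp2, a gene that was not called, lay 5 bases after its start.

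The other motifs, searched on both strands, split the genes differently. A GC box (GGGCGG) occurred in 7 of the 8 windows, all but that of Dusp6, and in 35.7% of all windows. An E-box (CACGTG) occurred in the windows of Dusp1 and Dusp2, and in 7.15% of all windows. No window of the 8 held the AP-1 motif (TGANTCA, 7.81% of all windows), the NF-kB site (4.51%), the p53 half-site (8.36%), the ETS core (CCGGAAG, 8.86%) or the TATA box (TATAAA, 13.6%). The 8 windows were richer in GC (57.3% to 78.7%) than the median of all windows (52.7%), so these shares do not compare sequences of like composition. These are matches of letters in a short window whose start may not be the one used in these cells.

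RNA levels were read as FPKM, fragments per kilobase of transcript and per M (mega) fragments sequenced, after depletion of ribosomal RNA. A gene was tested where at least 3 of the 6 libraries reached 0.5 FPKM, which left 12084 genes, all 9 phosphatases among them. The test was limma on log2(FPKM + 1), two-sided, with Benjamini-Hochberg adjustment over all tested genes and a threshold of 0.05. Fold changes on this scale are L-OHP+FUC over L-OHP and understate the change of low genes. With fucoidan, 4 phosphatases rose (Dusp4, Dusp5, Dusp16 and Dusp1), none fell and 5 did not pass. Over the 16 alternative settings between 2 and 5 rose. Over all tested genes 7.67% rose and 19.3% fell by the same test. The median log2 fold change was 0.42 over the 9 genes, beside -0.10 over all tested genes. Dusp5 was admitted to the test only by the group in which it was high. Without it, 3 of the other 8 genes rose and their median was 0.17.

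Libraries of the groups also differed in general. The implied depth was 15.8 to 18.6 M fragments in L-OHP+FUC and 16.6 to 18.7 M in L-OHP. A slope on GC content was taken per library, of each gene's deviation from its mean over the 6 libraries. Per 10 percentage points it lay between 0.002 and 0.211 (log2) in L-OHP+FUC libraries and between -0.195 and -0.003 in L-OHP libraries. The groups did not overlap, but L-OHP+FUC replicate 3 (0.002) and L-OHP replicate 2 (-0.003) were close. These slopes are relative to the other libraries. Genes at 1 FPKM or more numbered 9841 to 10188 in L-OHP+FUC and 10711 to 10813 in L-OHP, again without overlap. Mitochondrial genes took 8.84% to 9.44% of the FPKM in L-OHP+FUC and 5.99% to 9.36% in L-OHP, where replicate 2 was the lowest. Macrophage markers summed to 13600 to 14600 FPKM in L-OHP+FUC and 12600 to 18000 FPKM in L-OHP, most of it Lyz2. Of the 9 tested macrophage markers 1 rose, Csf1r (log2 fold change 0.47, adjusted p = 0.0233), and 2 fell, Mertk (-0.74, adjusted p = 0.00432) and Fcgr1 (-0.69, adjusted p = 0.0268). By the same test 7.67% of all tested genes rose and 19.3% fell, so these counts do not set the markers apart. Neutrophil markers, of which Ly6g, Retnlg and Cxcr2 were at 0, summed to 5.70 to 6.56 FPKM in L-OHP+FUC and 3.79 to 4.26 FPKM in L-OHP. Most of that was S100a8 (4.23 ± 0.496 FPKM in L-OHP+FUC, 2.58 ± 0.274 FPKM in L-OHP). S100a9 averaged 0.352 FPKM in L-OHP+FUC and 0.309 FPKM in L-OHP, and 8 of the 10 markers stayed below 0.5 FPKM in every library. Fibroblast and stromal markers, led by Col1a1, summed to 7.09 to 7.52 FPKM in L-OHP+FUC and 4.84 to 11.8 FPKM in L-OHP. Lymphocyte, dendritic cell and mast cell markers reached at most 1.11 FPKM summed in any library, with Cd3e, Flt3 and Fcer1a at 0. Erythroid and megakaryocyte markers, led by Pf4, summed to 30.7 to 33.9 FPKM in L-OHP+FUC and 16.1 to 20.9 FPKM in L-OHP. Osteoclast markers summed to 70.4 to 85.5 FPKM in L-OHP+FUC and 52.7 to 56.9 FPKM in L-OHP, a difference carried by Acp5, which macrophages also express (48.1 ± 4.73 FPKM in L-OHP+FUC, 23.5 ± 2.79 FPKM in L-OHP). Ctsk averaged 29.8 FPKM in L-OHP+FUC and 29.5 FPKM in L-OHP, and Dcstamp 1.28 FPKM in L-OHP+FUC and 1.63 FPKM in L-OHP. The part of these markers, the number of genes detected and the mitochondrial share in the results was not tested, and in bulk RNA fewer cells of a type and less RNA per cell cannot be told apart.

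Dusp4, a nuclear phosphatase of ERK, JNK and p38 (chr8:34807297-34819894, plus strand, mm10), had the smallest p of the 9. It stood at 17.1, 17.0 and 19.5 FPKM with fucoidan (L-OHP+FUC), against 6.16, 8.35 and 7.05 FPKM with L-OHP alone. Every L-OHP+FUC library was above every L-OHP library. Dusp4 averaged 17.9 ± 1.43 FPKM in L-OHP+FUC and 7.19 ± 1.1 FPKM in L-OHP (SD, n = 3 each). Dusp4 rose by 1.21 on the log2 scale (SE 0.12, adjusted p = 0.00378, limma). The authors' deposited table gives a ratio of mean FPKM of 2.49 for Dusp4, with a q-value of 1.7e-11. Over the 16 alternative settings the log2 fold change of Dusp4 lay between 1.07 and 1.33.

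Dusp5, a nuclear phosphatase specific for ERK (chr19:53529109-53542431, plus strand), was low in both groups. It stood at 1.12, 1.14 and 1.21 FPKM in L-OHP+FUC, against 0.309, 0.147 and 0.217 FPKM in L-OHP, without overlap. Dusp5 passed the filter only through its L-OHP+FUC libraries, so a difference was built into its admission. Its mean over all 6 libraries also reached 0.5 FPKM, again through L-OHP+FUC (mean 1.16 FPKM, against 0.224 FPKM in L-OHP). Under that filter, chosen after the data were seen, its adjusted p was 0.00562 (limma), which is no independent support. Its values stand for roughly 44 to 51 fragments per L-OHP+FUC library and 7 to 13 per L-OHP library, at the implied depth and the length of its longest transcript. Dusp5 rose by 0.82 on the log2 scale (SE 0.10, adjusted p = 0.00479, limma). With a pseudocount of 0.1 its log2 fold change was 1.98 (adjusted p = 0.00816), and the authors' deposited table gives a ratio of 5.16.

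Dusp1, the inducible nuclear phosphatase that acts on p38 and JNK in activated macrophages, lies at chr17:26505590-26562128 on the minus strand. It stood at 9.06, 10.8 and 11.9 FPKM in L-OHP+FUC, against 6.59, 7.74 and 6.89 FPKM in L-OHP, and again the groups did not overlap. Dusp1 averaged 10.6 ± 1.45 FPKM in L-OHP+FUC and 7.07 ± 0.594 FPKM in L-OHP (SD, n = 3 each). It rose by 0.52 on the log2 scale (SE 0.12, adjusted p = 0.0223, limma). The call did not hold when any one of 4 libraries was left out: the adjusted p was 0.081 without L-OHP+FUC replicate 2, 0.0519 without L-OHP+FUC replicate 3, 0.0757 without L-OHP replicate 1 and 0.0572 without L-OHP replicate 3. It was 0.0526 after correction for GC content and length, and 0.0501 without the filter on low values. For Dusp1 the authors' deposited table gives a ratio of 1.5 with a q-value of 0.00251. It does not mark Dusp1 as significant, as it does Dusp4, Dusp5 and Dusp16. The annotated Dusp1 locus overlaps Ergic1 on the opposite strand, which averaged 14.1 ± 1.1 FPKM in L-OHP+FUC and 9.80 ± 0.839 FPKM in L-OHP. The overlap lies between 26561489 and 26562128, at the 5′ end of the annotated locus, while the promoter window above lies at 26508423-26508722. Whether reads were counted by strand is not given in the sources used here, so reads that fall in the overlap may not be told apart.

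Dusp2, the remaining nuclear inducible member (chr2:127336159-127338376, plus strand), is known from activated leukocytes and did not pass. It stood at 2.07, 1.72 and 1.85 FPKM in L-OHP+FUC, against 1.73, 4.18 and 2.04 FPKM in L-OHP. The groups overlapped, and L-OHP replicate 2 stood above the other 5 libraries. The log2 fold change of Dusp2 was -0.28 (SE 0.24, adjusted p = 0.401, limma), and 0.00 without L-OHP replicate 2.

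**Figure D1:**
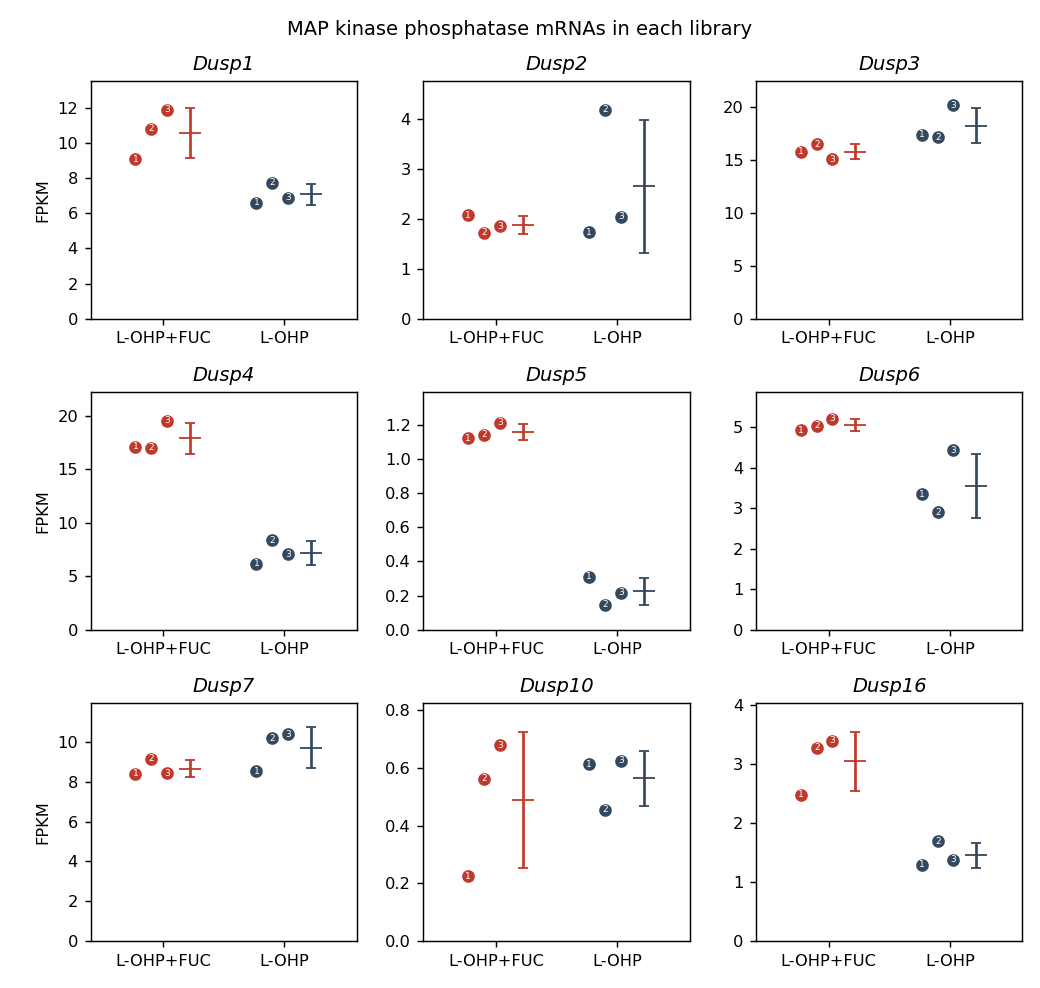
FPKM of each of the 9 phosphatase genes by library (y axis, FPKM), with 1 panel per gene and the replicate number in each point. L-OHP+FUC is left of L-OHP in each panel, and bars give the mean ± SD of 3 libraries. Dusp1, Dusp4, Dusp5, Dusp6 and Dusp16 show L-OHP+FUC points above all L-OHP points.

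Dusp6, the cytoplasmic ERK phosphatase whose transcription follows ERK activity (chr10:99263231-99267489, plus strand), was at 4.92, 5.04 and 5.21 FPKM in L-OHP+FUC, against 3.34, 2.90 and 4.43 FPKM in L-OHP. The groups did not overlap, and L-OHP replicate 3 stood nearest to L-OHP+FUC. Dusp6 did not pass (log2 fold change 0.42, SE 0.13, adjusted p = 0.0557, limma). It passed without L-OHP replicate 3 (adjusted p = 0.0245), after median ratio rescaling (0.0271), after quantile normalization (0.0219) and after correction for GC content and length (0.0362). Over all 16 alternatives its adjusted p ran up to 0.146. For Dusp6 the authors' deposited table gives a ratio of 1.42 with a q-value of 0.03, and does not mark it as significant.

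Dusp7, the other cytoplasmic ERK phosphatase (chr9:106368632-106375724, plus strand), was at 8.40, 9.17 and 8.43 FPKM in L-OHP+FUC, against 8.53, 10.2 and 10.4 FPKM in L-OHP. The groups overlapped, and the log2 fold change was -0.15 (SE 0.10, adjusted p = 0.313, limma). In no alternative did it pass.

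Among the phosphatases of JNK and p38, Dusp16 (chr6:134715468-134792625, minus strand) stood at 2.48, 3.28 and 3.40 FPKM in L-OHP+FUC, against 1.29, 1.69 and 1.38 FPKM in L-OHP. The groups did not overlap. Dusp16 averaged 3.05 ± 0.498 FPKM in L-OHP+FUC and 1.45 ± 0.209 FPKM in L-OHP (SD, n = 3 each). It rose by 0.72 on the log2 scale (SE 0.13, adjusted p = 0.0116, limma), and the authors' deposited table gives a ratio of 2.10. The call held in the 15 alternatives in which Dusp16 was tested, with an adjusted p of up to 0.0495.

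Dusp10 (chr1:184013302-184075636, plus strand) was near the filter, at 0.225, 0.563 and 0.679 FPKM in L-OHP+FUC, against 0.614, 0.455 and 0.626 FPKM in L-OHP. L-OHP+FUC replicate 1 was the lowest library and the groups overlapped. The log2 fold change of Dusp10 was -0.08 (SE 0.14, adjusted p = 0.689, limma). Its sign was positive without L-OHP+FUC replicate 1 (0.05) and after quantile normalization (0.15), so no direction is given for Dusp10.

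Dusp3, the small phosphatase without a kinase-binding domain (chr11:101971143-101987013, minus strand), was the highest member in the L-OHP libraries. It stood at 15.8, 16.5 and 15.1 FPKM in L-OHP+FUC, against 17.4, 17.2 and 20.2 FPKM in L-OHP. Every L-OHP+FUC library was below every L-OHP library, but Dusp3 did not pass (log2 fold change -0.19, SE 0.09, adjusted p = 0.163, limma). Of the 9 genes, 5 had all L-OHP+FUC libraries above all L-OHP libraries and 1 had all below. Over all tested genes these shares were 16.1% above and 30.9% below. Dusp5 is among the 5, and its lack of overlap was fixed by the filter, which it passed only through L-OHP+FUC.

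**Figure D2:**
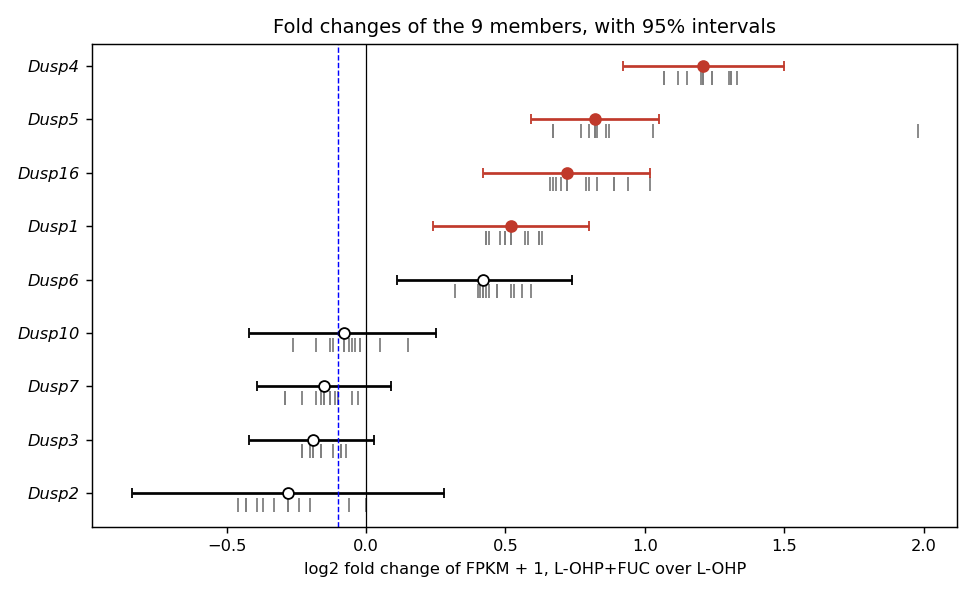
Log2 fold change of each phosphatase, L-OHP+FUC over L-OHP, on log2(FPKM + 1) (x axis), with the 95% confidence interval as a bar. Filled red points passed the threshold, grey ticks give the alternatives, and the dashed line is the median of all tested genes (-0.10). The intervals of Dusp4 (0.92 to 1.5) and Dusp5 (0.59 to 1.05) lie well to the right of that line. For Dusp5 a difference was built in, since it passed the filter only through L-OHP+FUC.

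Summed over the 9 genes, phosphatase RNA amounted to 61.2, 65.3 and 67.4 FPKM in L-OHP+FUC, against 46.0, 52.9 and 53.3 FPKM in L-OHP. The 4 nuclear inducible genes together averaged 31.5 ± 2.69 FPKM in L-OHP+FUC and 17.1 ± 2.93 FPKM in L-OHP (SD, n = 3 each). They made up 48.8% ± 2.22 of the sum in L-OHP+FUC and 33.7% ± 4.31 in L-OHP. Dusp4 alone took 27.7% ± 1.49 of the sum in L-OHP+FUC and 14.1% ± 1.43 in L-OHP. The share of Dusp3 was 24.5% ± 1.82 in L-OHP+FUC and 36.1% ± 3.11 in L-OHP. Dusp6 and Dusp7 together held 21.3% ± 0.883 in L-OHP+FUC and 26.2% ± 1.55 in L-OHP, while their summed level was 13.7 ± 0.449 FPKM in L-OHP+FUC and 13.3 ± 1.5 FPKM in L-OHP. Dusp10 and Dusp16 together held 5.46% ± 0.895 in L-OHP+FUC and 3.98% ± 0.201 in L-OHP. These shares describe genes whose separate tests are given above and carry no test of their own.

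**Figure D3:**
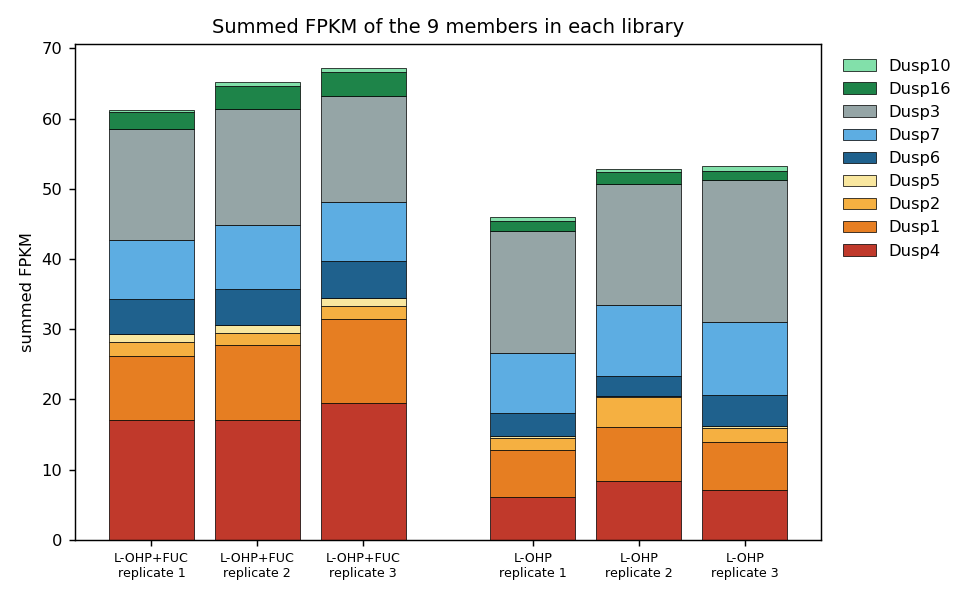
Summed FPKM of the 9 phosphatases in each library (y axis, FPKM), stacked by gene, with L-OHP+FUC libraries left of L-OHP libraries. The L-OHP+FUC bars reach 61.2 to 67.4 FPKM and the L-OHP bars 46.0 to 53.3 FPKM, and the Dusp4 segment is 27.7% of the bar on average in L-OHP+FUC and 14.1% in L-OHP.

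Ratios between members within a library do not depend on a single scaling factor per library, although quantile normalization and the GC and length correction can move them. The 4 pairs were formed after the values had been seen, so the ratios are a description and carry no test. Dusp4 over Dusp1 was 1.89, 1.57 and 1.64 in L-OHP+FUC, against 0.934, 1.08 and 1.02 in L-OHP. Dusp4 over Dusp3 was 1.08, 1.03 and 1.29 in L-OHP+FUC, against 0.354, 0.486 and 0.349 in L-OHP. Dusp6 over Dusp7, the pair of cytoplasmic ERK phosphatases, was 0.586, 0.550 and 0.618 in L-OHP+FUC, against 0.392, 0.283 and 0.426 in L-OHP. Dusp16 over Dusp10 was 11.0, 5.83 and 5.00 in L-OHP+FUC, against 2.10, 3.71 and 2.20 in L-OHP. In all 4 pairs the groups did not overlap, and the last pair rests on few fragments, since Dusp10 stands for roughly 12 to 31 per library.

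Among the other dual-specificity phosphatases, 8 of 17 genes were tested. Of these, 1 rose, 1 fell and 6 did not pass, where 7.67% of all tested genes rose and 19.3% fell. The gene that rose was Dusp8, a JNK and p38 phosphatase that belongs to the same enzyme family but not to the 9. Dusp8 was at 0.944, 0.849 and 0.986 FPKM in L-OHP+FUC, against 0.161, 0.370 and 0.210 FPKM in L-OHP, and it too passed the filter only through L-OHP+FUC. It rose by 0.63 on the log2 scale (SE 0.10, adjusted p = 0.0101, limma). The Dusp8 promoter window holds full CREs 107 and 63 bases before the start. No other window outside the 9 genes was examined singly, so the CREs and the rise are not linked here. Dusp11, which acts on RNA, fell by 0.31 (adjusted p = 0.0417), with a change of 0.00 after correction for GC content and length. That call did not hold without L-OHP+FUC replicate 1 or 2 or any L-OHP replicate, with adjusted p-values of 0.0668 to 0.133. Dusp23 averaged 7.5 ± 1.29 FPKM in L-OHP+FUC and 5.32 ± 0.201 FPKM in L-OHP and did not pass (log2 fold change 0.42), but had an adjusted p of 0.0197 when L-OHP+FUC replicate 3 was left out, 0.0321 after median ratio rescaling and 0.0325 after quantile normalization. Dusp12, a zinc-binding phosphatase, did not pass (log2 fold change -0.15, adjusted p = 0.323) and had the opposite sign after quantile normalization (0.06).

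The kinases that these phosphatases act on, and the kinases above them, were counted by the same test, in which 7.67% of all genes rose and 19.3% fell. Of 14 MAP kinases 9 were tested, and 1 rose, 1 fell and 7 did not pass. Mapk3, which encodes ERK1, rose by 0.56 (105 ± 11.5 FPKM in L-OHP+FUC, 70.5 ± 5.71 in L-OHP, adjusted p = 0.0162), and its call did not hold without L-OHP replicate 1 (0.0519), L-OHP+FUC replicate 1 (0.0589) or L-OHP+FUC replicate 2 (0.0656). Mapk6, an atypical MAP kinase, fell by 0.39 (adjusted p = 0.0278), a call that did not hold without L-OHP+FUC replicate 1 or 2 or L-OHP replicate 1 or 3 (0.0579 to 0.096), or after correction for GC content and length (-0.24, adjusted p = 0.0647) or median ratio rescaling (-0.27, adjusted p = 0.0646). Mapk14, the main p38 kinase, had a log2 fold change of 0.35 (adjusted p = 0.0894, with 0.0275 without L-OHP replicate 2 and 0.0396 after median ratio rescaling), and Mapk9, a JNK, one of -0.19 (adjusted p = 0.246). Of 7 MAP kinase kinases 6 were tested, 2 rose and none fell. Map2k5, the kinase of ERK5, averaged 11.8 ± 0.269 FPKM in L-OHP+FUC and 8.18 ± 0.656 FPKM in L-OHP (log2 fold change 0.48, adjusted p = 0.0124). Map2k2, a kinase of ERK, rose by 0.59 (adjusted p = 0.0316). Without any one of 5 libraries its call did not hold, L-OHP replicate 2 being the exception, with adjusted p-values of 0.0566 to 0.103. Map2k1, the other kinase of ERK, had a log2 fold change of 0.18 (adjusted p = 0.401, and 0.0427 without L-OHP replicate 2), and Map2k7, a kinase of JNK, one of -0.38 (adjusted p = 0.457).

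Of 22 MAP kinase kinase kinases 18 were tested, and 2 rose and 3 fell. Map3k1, which feeds the JNK and ERK cascades, averaged 4.82 ± 0.643 FPKM in L-OHP+FUC and 11.5 ± 1.16 FPKM in L-OHP, a log2 fold change of -1.11 (adjusted p = 0.00432, limma) that held in all 16 alternatives. Map3k3 rose by 0.33 (adjusted p = 0.0353). Map3k2 fell by 0.52 (adjusted p = 0.0278), with the opposite sign after correction for GC content and length (0.06). Without L-OHP+FUC replicate 1 or 2 or L-OHP replicate 1 or 3 its adjusted p was 0.067 to 0.0978. Braf, named because it is the remaining gene of those that fell and after its values were seen, fell by 0.55 (adjusted p = 0.0421), with a log2 fold change of -0.09 after the same correction. Its adjusted p was 0.0606 to 0.127 without L-OHP+FUC replicate 1 or 2 or any L-OHP replicate. Of 11 kinases that MAP kinases activate, 9 were tested, 2 rose and 2 fell. Mapkapk2, a p38 target that stabilises cytokine mRNA, averaged 377 ± 38.8 FPKM in L-OHP+FUC and 207 ± 27.1 FPKM in L-OHP, a log2 fold change of 0.87 (adjusted p = 0.00867) that held in all 16 alternatives. Rps6ka1, an ERK-activated kinase, rose by 0.33 (0.18 after correction for GC content and length, adjusted p = 0.0965), while Mknk2 fell by 0.41 and Mapkapk3 fell by 0.30 (-0.19 after median ratio rescaling, adjusted p = 0.158). The call of Mknk2 did not hold without L-OHP+FUC replicate 1 (0.0588) or 2 (0.0815), or after median ratio rescaling (-0.28, adjusted p = 0.0614). The calls of Rps6ka1, Mapkapk3 and Map3k3 each did not hold in 9 alternatives. With any library but L-OHP replicate 2 left out, the adjusted p was 0.0536 to 0.129 for Rps6ka1, 0.0771 to 0.153 for Mapkapk3 and 0.0718 to 0.129 for Map3k3.

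Genes that MAP kinase activity is known to induce were counted beside the phosphatases. Of 24 immediate early genes 17 were tested, 6 rose and none fell, beside 7.67% and 19.3% of all tested genes, with a median log2 fold change of 0.32. Over the alternatives 1 to 9 rose. Of the 17, 9 had every L-OHP+FUC library above every L-OHP library and 3 had every one below. Over all tested genes the shares without overlap were 16.1% above and 30.9% below. Fos, named after its values were seen, was one of those 3, at 5.55 ± 0.377 FPKM in L-OHP+FUC and 7.89 ± 2.05 FPKM in L-OHP, and did not pass (log2 fold change -0.42, adjusted p = 0.108). Jun, its partner in AP-1, averaged 24.0 FPKM in L-OHP+FUC and 24.1 FPKM in L-OHP. Ier3, an inducible survival factor, averaged 15.1 ± 0.152 FPKM in L-OHP+FUC and 9.53 ± 1.54 FPKM in L-OHP (log2 fold change 0.62, adjusted p = 0.0134). Myc, a growth regulator, averaged 2.71 ± 0.313 FPKM in L-OHP+FUC and 1.51 ± 0.230 FPKM in L-OHP (log2 fold change 0.56, adjusted p = 0.0166). Klf2 rose by 0.59 and Fosl2, a subunit of AP-1, rose by 0.50. Leaving out 1 library ended each of these 4 calls. For Ier3 this was L-OHP+FUC replicate 1 (adjusted p = 0.0505) or 2 (0.0528), and for Myc L-OHP+FUC replicate 2 (0.0668). For Klf2 it was L-OHP+FUC replicate 1 or 3 or L-OHP replicate 1 or 3 (0.0516 to 0.0778), and its call was also lost after correction for GC content and length (0.41, adjusted p = 0.074). For Fosl2 it was any L-OHP+FUC replicate or L-OHP replicate 1 (0.0563 to 0.0797). Of 10 Sprouty, Spred and ETV genes, feedback regulators and targets of ERK, 5 were tested and 1 rose. That gene was Spred2, at 7.39 ± 0.376 FPKM in L-OHP+FUC and 4.12 ± 1.06 FPKM in L-OHP (log2 fold change 0.73, adjusted p = 0.0166). Its call did not hold without L-OHP+FUC replicate 1 (0.059) or 2 (0.0642) or L-OHP replicate 1 (0.058). Etv5 (log2 fold change 0.32, adjusted p = 0.0804), Spred3 (-0.26, adjusted p = 0.0965) and Spred1 (0.39, adjusted p = 0.113) did not pass. After correction for GC content and length Spred1 passed at 0.76 (adjusted p = 0.0213) and Spred3 at -0.34 (adjusted p = 0.0434), and Spred1 also passed without L-OHP replicate 2 (adjusted p = 0.0327). With the replicate block added to that correction, neither passed (adjusted p = 0.0625 for Spred1 and 0.0814 for Spred3). Spred3 passed the filter only through L-OHP, and its log2 fold change was -0.03 after quantile normalization. Etv5 passed after median ratio rescaling (0.42, adjusted p = 0.0373) and quantile normalization (0.47, adjusted p = 0.0344). Of 10 other phosphatases that act on MAP kinases 8 were tested, and 2 rose: the PP2A subunits Ppp2r1a (log2 fold change 0.55, adjusted p = 0.00913) and Ppp2cb (0.47, adjusted p = 0.0128), the second of which did not pass without L-OHP+FUC replicate 2 (0.0593). The PP2A subunits Ppp2ca (0.24, adjusted p = 0.0579) and Ppp2r5c (-0.37, adjusted p = 0.128) did not pass. Ppp2ca passed after correction for GC content and length (0.55, adjusted p = 0.00882), with the replicate block added to it (0.55, adjusted p = 0.0346), after median ratio rescaling (0.37, adjusted p = 0.0188) and without L-OHP replicate 2 (adjusted p = 0.0474). Ppp2r5c passed without L-OHP replicate 1 (adjusted p = 0.0451).

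**Figure D4:**
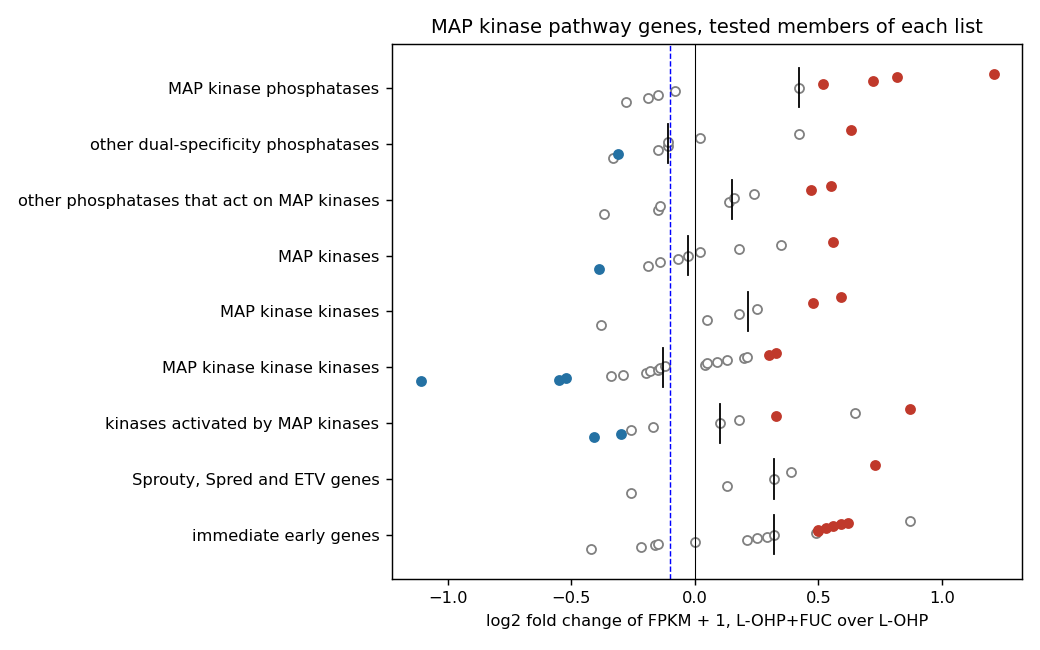
Log2 fold change, L-OHP+FUC over L-OHP (x axis), of each tested gene in the phosphatase set and the 8 pathway lists (1 row per list). Red points rose, blue points fell and open points did not pass, with the median of each list as a black line and that of all tested genes (-0.10) dashed. The 9 phosphatases have a median of 0.42 and the immediate early genes one of 0.32.

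The genes whose levels ran most like those of Dusp4 over the 6 libraries were Alg9, a mannosyltransferase of the endoplasmic reticulum, the neutrophil-attracting chemokine Cxcl2, and Praf2. The Pearson r of log2(FPKM + 1) with Dusp4 was 0.994 for Alg9, 0.992 for Cxcl2 and 0.992 for Praf2. These libraries form 2 groups, so any gene with a clear group difference scores high, and 212 of 5563 eligible genes reached 0.95. Cxcl2 averaged 52.1 ± 3.89 FPKM in L-OHP+FUC and 8.82 ± 1.94 FPKM in L-OHP (SD, n = 3 each).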

How the data were processed

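RNA of cultured mouse macrophages, from 3 samples given fucoidan and then L-OHP and 3 given L-OHP, was sequenced after removal of ribosomal RNA, per the labels' protocols. HISAT2, StringTie, DESeq2, limma, bcl2fastq 2.0 and mm10 appear in the submitters' processing notes, without their roles. How reads were counted, by which annotation and whether by strand is not given in the sources used here. The authors' FPKM values, given for each gene in every library per the file headers, have 0.0001 standing for 0, set here to 0. The authors' ratio is that of the mean FPKM, with its log2 deposited by the authors beside it, and the p-value and q-value per gene were also deposited by the authors. Their table holds a mark of significance per gene too.

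Genes at 0.5 FPKM in at least 3 of 6 libraries were tested with limma 3.58.1 (R 4.3.3) on log2(FPKM + 1), with an intensity trend. The procedure was tested on simulated data. FPKM hold no read counts: of low values, 33.2% to 38.3% came out as whole fragments within 0.03, so the implied depth of 15.8 to 18.7 M (mega) fragments per library is approximate and no count test was run. GC content and length came from the longest GENCODE M21 transcript (55141 of 55401 genes matched). Replicate numbers did not pair the libraries (r of same-numbered deviations -0.04, -0.07 and 0.08).

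The 9 genes and the lists were chosen with earlier results of these data known. All 9 are named, with up to 4 tested genes of smallest p from each of 8 pathway lists where one passed, and the 3 genes most like the member of smallest p, among genes of mean at least 5 FPKM. The 16 alternatives changed the pseudocount, the filter, the scaling, the GC and length correction (loess, span 0.3), the intensity trend or the replicate block, or left out 1 library, and 1 of them, a mean of at least 0.5 FPKM, was chosen after seeing the data. The values of 1 pathway gene that this rule names are not reported here.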

Additional observations from a re-analysis of the deposited data

How the results depend on the processing

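The calls of Dusp4, Dusp5 and Dusp16 held in every alternative in which each was tested (16, 15 and 15), while that of Dusp1 was lost in 7 of 16 and Dusp6 gained one in 4. Dusp5 passed the reported filter only through L-OHP+FUC, so its holding under that filter is no independent support. With a mean of at least 5 FPKM required, 2 phosphatases rose, since only 4 were tested there. Genes rising numbered 927 in the reported test, 561 without the filter, 1581 after median ratio rescaling, 1565 after quantile normalization, 554 with the replicate block and 266 to 1121 with 1 library left out. Genes falling numbered 2335, against 1520 without the filter, 966 at a mean of 5 FPKM, 1359 after quantile normalization, 1436 after GC and length correction, 798 with that correction and the replicate block, and 835 to 2256 with 1 library left out. The median of all tested genes moved to 0.03 with quantile normalization, from -0.10. With median ratio rescaling 1581 rose and 1680 fell. Signs turned for Dusp10 (0.15 after quantile normalization, -0.18 to 0.05 with 1 library left out), Dusp12 (0.06 after quantile normalization) and Map3k2 (0.06 after GC and length correction, with or without the replicate block). The cause was not tested. On its own, the replicate block changed no call among the 9 phosphatases. With 3 libraries a group and no counts, values near 0.5 FPKM, such as those of Dusp5 and Dusp10, rest on few fragments.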
